A study of Bos taurus with 16 samples.

Results

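The probes for 9 genes of the B cell receptor and of B cells were followed in CD14+ cells of pregnant cows. The genes are CD79A, CD79B, BLK, BLNK, BANK1, CD22, CR2, MS4A1 and PAX5, out of 20602 gene names on the array, and 10 of its 21475 probes represent them. By the array's gene name or by the symbol in brackets in its description, 5 of the genes were found (CD79A, CD79B, BLK, BLNK and BANK1). The symbols of the other 4 genes are not in those fields. One MS4A1 probe and PAX5 were found by the symbol in the array's sequence title, the other MS4A1 probe and CD22 by gene identifier in a reference gene table, and CR2 by its synonym cd21. The CD14+ cells came from the endometrium and from the peripheral blood of 4 untreated cows, which were pregnant for 164, 239, 242 and 248 days (animals 1 to 4). They were taken by flow cytometry, with a scatter gate on the monocyte region and CD14 as the only stained marker in 2 rounds of sorting, from a digest of the endometrium between the placentomes and from blood mononuclear cells, and the labels give a purity of 90 to 95% for endometrium and of 98 to 99% for blood. Amplified and labeled RNA of both tissues of an animal was hybridized together on Agilent bovine arrays with 2 colours, 2 arrays for each animal. There is 1 cell preparation for each animal and tissue, so the animals are the replicates.

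The B cell receptor is a membrane immunoglobulin held together with CD79A and CD79B, whose cytoplasmic tails carry the motifs that kinases phosphorylate when antigen binds. SRC family kinases such as BLK and LYN act at this step, and the adaptors BLNK and BANK1 pass the signal on toward calcium release. CD22 is a sialic acid-binding coreceptor that restrains the signal, and CR2, also called CD21, binds complement fragments on antigen and strengthens it. MS4A1 encodes the B cell surface protein CD20, and PAX5 is the transcription factor that keeps cells in the B lineage. CD14 is a coreceptor for lipopolysaccharide on monocytes and macrophages, and these cells are not known to carry a B cell receptor. BLNK and CR2 are known outside B cells too, BLNK in macrophages and CR2 on follicular dendritic cells.

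Every value below is what a probe of 60 bases captured, so the probes are printed here as the array's files give them, 5′ to 3′, entirely in lower case because the whole of each probe hybridizes.
CD79A: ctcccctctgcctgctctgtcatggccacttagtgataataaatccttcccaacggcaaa
CD79B: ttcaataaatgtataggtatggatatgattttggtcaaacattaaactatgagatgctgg
BLK: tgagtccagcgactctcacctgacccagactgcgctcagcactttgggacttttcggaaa
BLNK: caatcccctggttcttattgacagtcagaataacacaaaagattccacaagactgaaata
BANK1: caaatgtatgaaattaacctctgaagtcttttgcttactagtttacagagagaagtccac
CD22: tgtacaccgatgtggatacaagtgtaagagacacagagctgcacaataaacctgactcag
CR2: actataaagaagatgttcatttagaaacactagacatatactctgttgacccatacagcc
MS4A1, probe A_73_105053: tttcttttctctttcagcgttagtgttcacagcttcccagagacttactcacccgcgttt
MS4A1, probe A_73_115697: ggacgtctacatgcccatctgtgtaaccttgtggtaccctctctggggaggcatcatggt
PAX5: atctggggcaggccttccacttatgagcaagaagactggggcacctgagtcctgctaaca
Their GC content lay between 30% (CD79B) and 55% (BLK, PAX5 and the second MS4A1 probe). Each shared a run of 20 bases, on either strand, with 0 other probes of the array. The MS4A1 probes had no common stretch longer than 5 bases, so they read different parts of the transcript.
Another probe, A_73_100824, is named PAX2 in the array's description, but its gene identifier belongs to PAX5 in the reference table: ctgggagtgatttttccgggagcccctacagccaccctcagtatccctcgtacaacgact
It was kept apart because its names disagree, and it is not counted among the 10. Genome positions are not given, because the reference gene table is of another assembly than the array's design.

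Levels are log2 normalized intensities, the mean of 2 arrays, and ratios are log2 endometrium over blood within an animal. Each SE is the moderated one of limma's fit, which draws the variance of a probe toward that of all probes. It is therefore not the plain SE of the 4 animals. The plain SD of the ratios over the animals was 2.62 for CR2, 1.96 for the brighter MS4A1 probe and 0.38 for BANK1. CD14, the marker of the sort, was well above background in 8 of 8 channels of each tissue, but it measured 12.17, 6.41, 8.14 and 6.82 in endometrium and 14.24, 6.31, 7.63 and 6.69 in blood, so it was high in animal 1 and far lower in animals 2 to 4. CD68, a lysosomal protein of macrophages, measured 12.93, 6.83, 9.03 and 9.94 in endometrium and 10.97, 6.95, 7.66 and 7.64 in blood. The transcript of the sorted marker was therefore weak in the preparations of 3 of the 4 animals, and ratios that change most when an animal is left out are given without it too. Channels had median spot intensities between 48 and 402.75 over local backgrounds of 13 to 49.5.

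B cell transcripts were well above background in blood, in 8 of 8 channels for each of the 10 probes. In endometrium 4 probes (CD79A, CD22, PAX5 and the brighter MS4A1 probe) were well above background in 8 of 8 channels, and the others in 2 (CD79B) to 7 (BLNK). By its brighter probe MS4A1 had the second lowest mean ratio of all 16654 probes tested (rank 2), and PAX5 was at rank 21. The median ratio of the 9 genes, each by its brightest probe, was -1.57, beside -0.02 over all probes tested. The mean ratio was below 0 in 9 of the 10 probes, with CR2 above 0. A probe was called differentially expressed where its adjusted p did not exceed 0.05 and its fold change exceeded 2. Of the 10 probes, 0 were called, beside 0.0661% of all probes (11 of 16654, all higher in endometrium, 0% higher in blood). A nominal threshold, with the same fold change but p before adjustment, was passed in the direction of blood by 6 of the 10 probes with limma, beside 5.11% of all probes. They are both MS4A1 probes, CD22, CD79B, BLK and PAX5, of which CD79B and the dimmer MS4A1 probe were above background in 2 and 4 of 8 endometrial channels. This count was 3 without animal 2 and between 4 and 7 without each of the other animals, and it was 2 with the methods' analysis of variance. Of the 10 probes, 5 were lower in endometrium in 4 of 4 animals at a mean fold change over 2, beside 5.31% of all probes, and 0 had all blood levels above all endometrial levels, beside 3.03%. MS4A1, CD22 and CD79A are genes that the study listed as higher in blood from these same samples. Their direction is therefore not independent evidence, and the counts and ranks above include them.

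**Figure D1:**
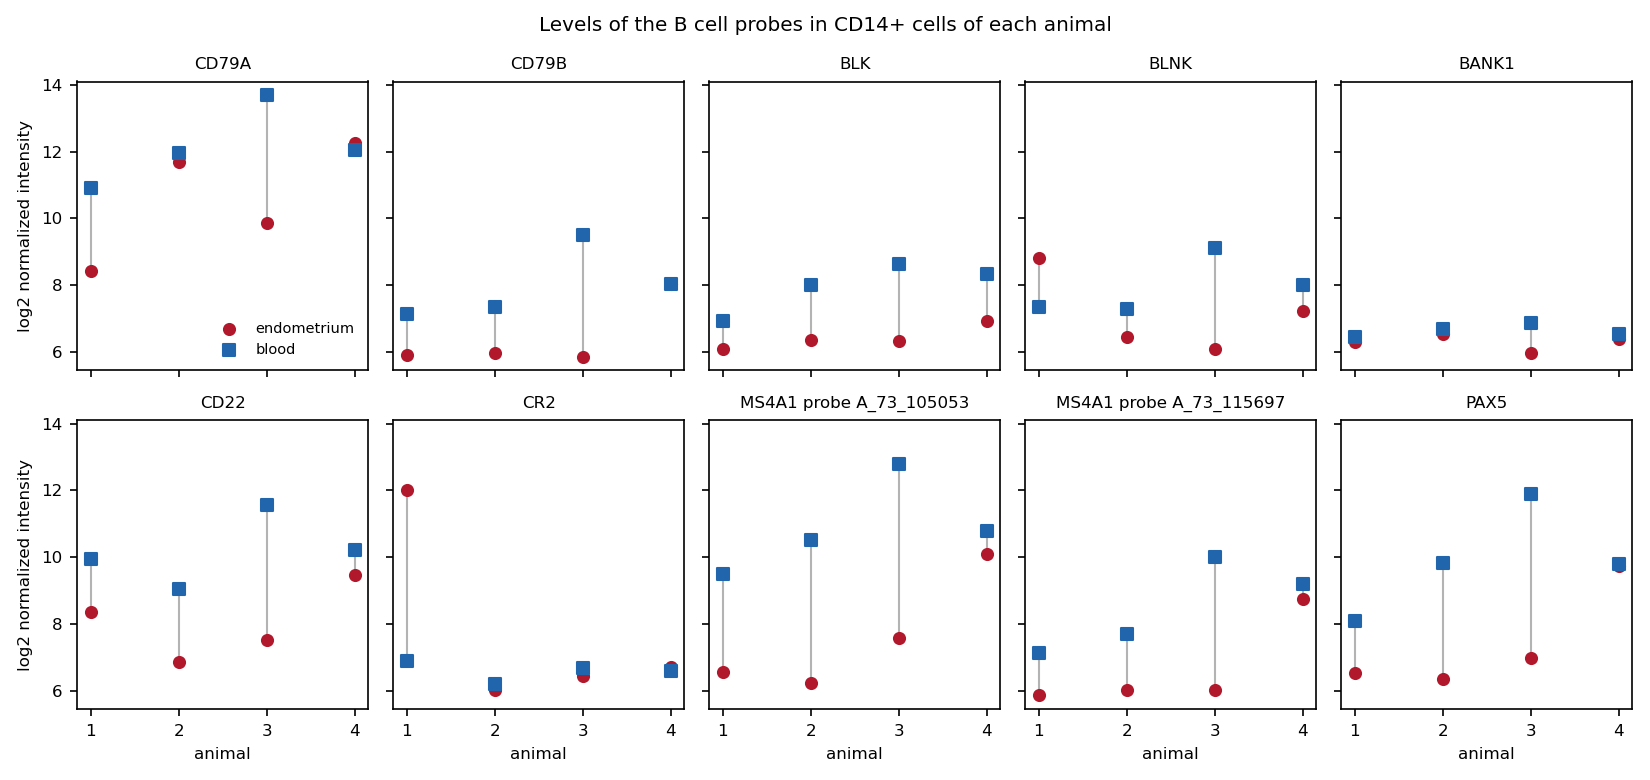
Log2 normalized intensity of the 10 probes (y axis) in each of the 4 animals (x axis), with circles for endometrial and squares for blood CD14+ cells, each the mean of 2 arrays, and a line joining the tissues of an animal. Blood of animal 3 is the highest blood sample in 9 of 10 probes. In animal 4 the tissues differ most for BLK, at a log2 ratio of -1.41, and the ratios of the other probes lie between -0.76 and 0.19.

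CD79A, the first of the signaling chains, was well above background in every channel. Its levels in endometrium were 8.43, 11.69, 9.87 and 12.25 in animals 1 to 4, and those in blood were 10.92, 11.95, 13.71 and 12.06. The tissues overlapped: endometrium of animals 2 and 4 was close to blood of the same animal, and endometrium of animals 1 and 3 was well below it. On average the log2 ratio was -1.60 ± 0.73 (SE, n = 4 animals), 3.03-fold higher in blood, with an adjusted p of 0.369 by limma, and it was lower in endometrium in 3 of 4 animals. It was -0.85 without animal 3, -2.05 without animal 2 and -2.20 without animal 4.
CD79B, the partner chain, measured 5.91, 5.96, 5.84 and 8.05 in endometrium and 7.14, 7.34, 9.5 and 8.04 in blood. In endometrium it was well above background on the arrays of animal 4 only, in 2 of 8 channels in all, and in blood it was above background in 8 of 8. Its mean log2 ratio was -1.57 ± 0.60 (SE, n = 4), with an adjusted p of 0.317 by limma, and without animal 3 it was -0.87. With the endometrial signal of animals 1 to 3 not well above background, the size of this ratio depends on how background is treated, and the authors' value table gave -4.64. The ratio of animal 4 was 0.0029, so its tissues had nearly equal levels, while those of the other animals lay between -3.66 and -1.24.

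BLK, the SRC family kinase largely restricted to B cells, had the smallest spread between animals among the probes with a fold change over 2. Its levels were 6.09, 6.36, 6.32 and 6.94 in endometrium and 6.92, 8.0, 8.64 and 8.35 in blood. Blood was higher in all 4 animals, and the tissues overlapped only in that blood of animal 1 was at the level of endometrium of animal 4. The mean log2 ratio was -1.55 ± 0.30 (SE, n = 4 animals), 2.92-fold higher in blood, with an adjusted p of 0.254, the lowest of the 10 probes. From the authors' value table the ratio of BLK was -3.36 ± 0.49 (SE, n = 4) with an adjusted p of 0.0269, so it was differentially expressed by that table.

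The adaptor BLNK measured 8.82, 6.45, 6.10 and 7.24 in endometrium and 7.35, 7.27, 9.12 and 8.0 in blood. Animal 1 was higher in endometrium, at a ratio of 1.47, and the other animals were higher in blood, most of all animal 3, at -3.03. Over the animals the log2 ratio was -0.79 ± 0.71 (SE, n = 4), with an adjusted p of 0.626. It was -1.54 without animal 1 and -0.04 without animal 3.
BANK1, a scaffold that binds LYN, was of low intensity throughout, at 6.31, 6.54, 5.97 and 6.38 in endometrium and 6.45, 6.70, 6.88 and 6.55 in blood. It was lower in endometrium in 4 of 4 animals, but only animal 3 departed from the others, at -0.91 against -0.17 to -0.14. Its mean log2 ratio was -0.35 ± 0.24 (SE, n = 4) and its adjusted p 0.524, the ratio without animal 3 was -0.16, and 5 of 8 endometrial and 8 of 8 blood channels were well above background.

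CD22, the inhibitory coreceptor, measured 8.37, 6.85, 7.53 and 9.47 in endometrium and 9.94, 9.05, 11.55 and 10.23 in blood. Each animal was lower in endometrium, and the endometrium of animal 4 reached above the blood of animal 2. The ratio averaged -2.14 ± 0.55 (SE, n = 4 animals), 4.39-fold higher in blood, with an adjusted p of 0.262, and lay between -2.60 without animal 4 and -1.51 without animal 3.
CR2 departed from the other members. Its levels were 12.02, 6.01, 6.45 and 6.72 in endometrium and 6.89, 6.20, 6.68 and 6.60 in blood. Endometrium of animal 1 stood far above every other sample, and the other 7 samples lay within 6.01 to 6.89. The ratio was 5.13 in animal 1 and between -0.23 and 0.13 in the other animals. The mean log2 ratio, 1.21 ± 0.99 (SE, n = 4), with an adjusted p of 0.587, therefore rested on animal 1, and without that animal it was -0.10. The same preparation was the highest of the 8 in stromal transcripts: the mean level of 8 stromal markers was 13.01 there and between 6.78 and 8.23 in endometrium of the other animals. Among the endometrial preparations it was also the highest in monocyte and macrophage markers, at a mean level of 12.19 against 8.79 to 10.27. The part of stromal cells or of monocytes and macrophages in the CR2 value was not tested.

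MS4A1 (CD20) had, by its brighter probe, the lowest mean ratio of the 10 probes from the median intensities. That probe measured 6.57, 6.24, 7.57 and 10.09 in endometrium and 9.51, 10.51, 12.78 and 10.78 in blood. Blood was above endometrium in every animal, and the groups overlapped only because endometrium of animal 4 exceeded blood of animal 1. The mean log2 ratio was -3.28 ± 0.76 (SE, n = 4 animals), 9.71-fold higher in blood, with an adjusted p of 0.262. Without animal 4 it was -4.14 and without animal 3 -2.63.
The other MS4A1 probe followed it at lower intensity, with 5.88, 6.03, 6.02 and 8.74 in endometrium and 7.11, 7.69, 10.00 and 9.19 in blood. Only 4 of its 8 endometrial channels were well above background, and its mean log2 ratio was -1.83 ± 0.60 (SE, n = 4), with an adjusted p of 0.278, and -1.12 without animal 3. Its order of animals was that of the brighter probe, with animal 3 lowest at -3.97 and animal 4 closest to 0 at -0.45.
PAX5 measured 6.54, 6.36, 6.99 and 9.75 in endometrium and 8.09, 9.83, 11.91 and 9.80 in blood. Animals 1 to 3 were lower in endometrium, and in animal 4 the tissues differed by only -0.05. The mean log2 ratio was -2.50 ± 0.82 (SE, n = 4 animals), 5.64-fold higher in blood, with an adjusted p of 0.278, and it was -1.69 without animal 3 and -3.31 without animal 4. The probe with disagreeing names had the same pattern at a smaller size, a mean log2 ratio of -0.99 ± 0.50 (SE, n = 4) with an adjusted p of 0.397, from -2.43 in animal 3 to 0.49 in animal 4.

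**Figure D2:**
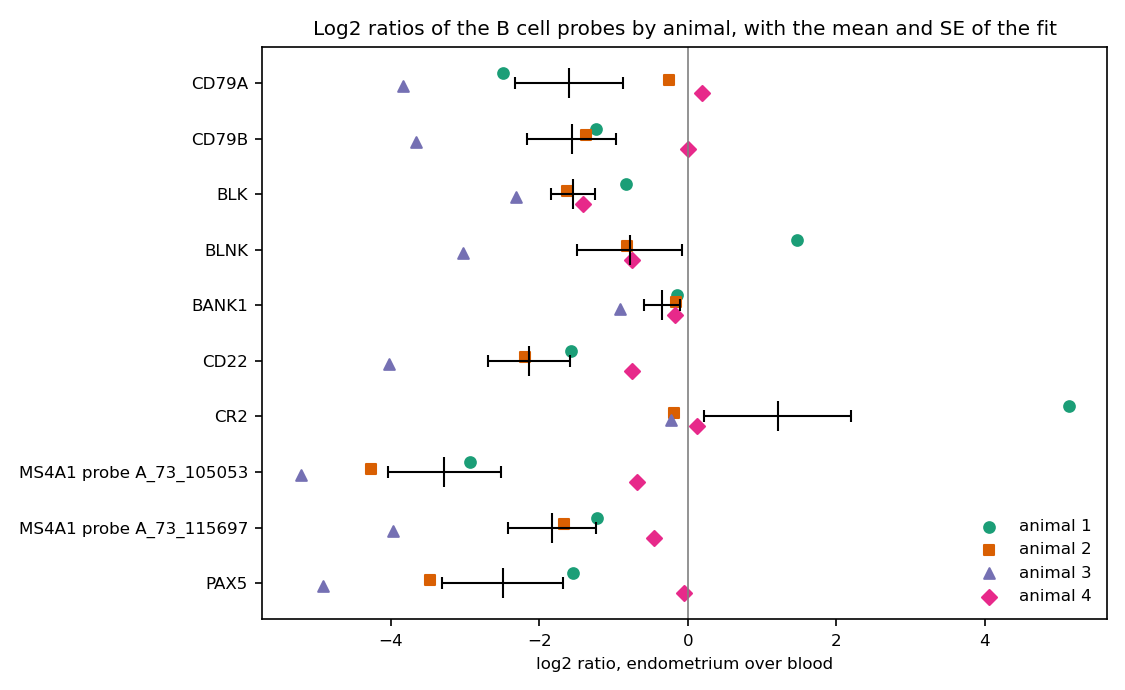
Log2 ratio of endometrium over blood (x axis) of the 10 probes (y axis), with a symbol for each animal and a black bar and whiskers for the mean and SE of the fit over 4 animals. Animal 3 is the lowest for all 10 probes, and CR2 of animal 1, at 5.13, is far from every other value.

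The members differed widely between animals. Animal 3 had the lowest ratio in 10 of 10 probes, beside 30.4% of all probes, and the highest blood level in 9 of 10, beside 22.2%. Animal 4 had the highest endometrial level in 7 of 10 probes, beside 27.8%. For animals 1 to 4 the median ratios of the 9 genes were -1.24, -1.38, -3.66 and -0.17, while the median over all probes lay between -0.09 and -0.02 in each. Without animal 3 the median ratio of the 9 genes was -0.87, and without animal 4 it was -2.09. The ratios of all probes also spread most in animal 3 (SD 1.49) and least in animal 4 (SD 0.712). The arrays of an animal differed little by comparison, with a median difference of 0.12 and a largest of 0.45 between the levels of a probe on the arrays of the same cells. Days of pregnancy and animal cannot be told apart. Animal 3 was also the only animal without a dye swap, with the same dye for blood on both of its arrays. In that animal dye and tissue cannot be told apart, and the difference between its arrays holds no change of dye.

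Across the 8 combinations of animal and tissue, most members had like profiles. Pearson's r with the brighter MS4A1 probe was 0.98 for PAX5, 0.96 for CD79B, 0.94 for the second MS4A1 probe and 0.92 for both CD22 and BLK. It was 0.78 for CD79A, 0.66 for BANK1, 0.47 for BLNK and -0.40 for CR2. The probe with disagreeing names had an r of 0.94. The 5 named genes outside the members with the profile most like MS4A1 were AGO2 (r of 0.995), DHX38 and FBXO34 (0.989 each), and TOR1A and JOSD1 (0.986 each). These coefficients rest on 8 points that share arrays in pairs, and they are a description.

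The authors' value table, which was normalized from the scanner's processed signals, gave the same sign as the scanner's median intensities for each of the 10 probes. By that table the mean log2 ratios were -4.48 and -4.07 for the MS4A1 probes, -4.64 for CD79B, -3.51 for PAX5, -2.57 for CD22 and -1.71 for CD79A. They were -1.68 for BANK1, -1.41 for BLNK and 0.80 for CR2. CD79B, and not MS4A1, had the lowest ratio by the value table. The ratios moved between the sources by 3.07 for CD79B, 2.24 for the dimmer and 1.20 for the brighter MS4A1 probe, 1.82 for BLK, 1.33 for BANK1 and 1.01 for PAX5, and by 0.62 or less for BLNK, CD22, CR2 and CD79A. CD79B, for example, measured 2.50, 2.51, 3.81 and 9.36 in endometrium and 7.99, 8.36, 11.03 and 9.34 in blood by the value table, so the same channels that were not well above background lay far lower there. The ratio of CD79A moved little, and it measured 9.84, 13.40, 11.49 and 13.96 in endometrium and 12.61, 13.67, 15.50 and 13.76 in blood. BLK was the only member called by the value table, as 1 of 224 probes called over the array, of which 20 were higher in blood. Over all probes tested the median log2 ratio of the value table was -0.14.

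**Figure D3:**
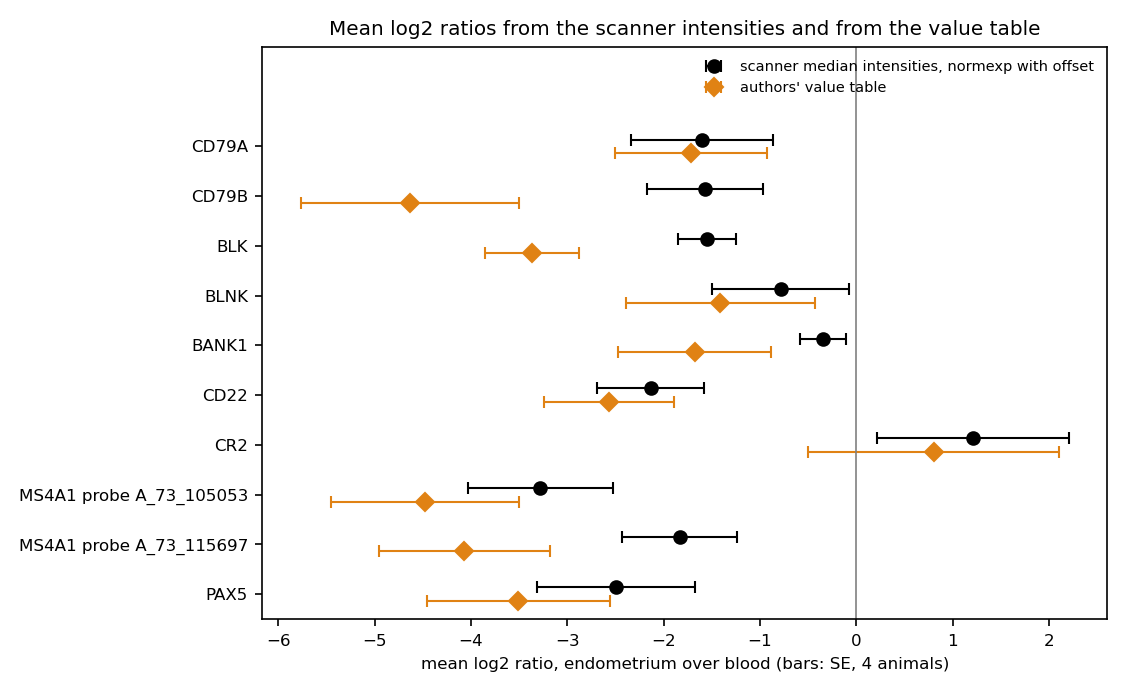
Mean log2 ratio of endometrium over blood with its SE over 4 animals (x axis) for the 10 probes (y axis), as black circles from the scanner's median intensities and as orange diamonds from the authors' value table. The sign is the same in both, and CD79B moves most, from -1.57 to -4.64.

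Genes of the B lineage outside the 9 members showed a smaller difference of the same sign. Of 46 other B cell and plasma cell genes considered, 33 had a probe and 30 were tested, with a median log2 ratio of -0.74, beside -0.02 over all probes. After adjustment 0 of the 30 passed from the median intensities. The nominal threshold was passed by 9 genes that were lower in endometrium and by 0 that were higher with limma, beside 5.11% of all probes for the lower ones. The lowest were CCR7, a chemokine receptor for homing to lymph nodes that T cells and dendritic cells carry too, at -2.94 ± 0.96 (SE, n = 4), and IGJ, the joining chain of secreted immunoglobulin, at -2.38 ± 0.63. TNFRSF13C, the receptor for the B cell survival factor BAFF, was at -2.17 ± 0.59, the activation marker CD83 at -2.02 ± 0.84 and LY86, the partner of CD180, at -1.96 ± 0.71. Adjusted p for these 5 lay between 0.262 and 0.342. At the other end, IKZF3, a transcription factor of lymphocytes, was at 0.84 ± 0.23, STAP1, an adaptor that acts below the receptor, and XBP1, a factor of secretory cells, were both at 0.15, CD24 was at 0.11 and EBF1, which acts with PAX5 in early B cells, was at 0.04. Without animal 1, in which EBF1 was at 3.03 and CD24 at -2.64, they were at -0.96 and 1.03, and the median of the list lay between -0.95 without animal 1 and -0.52 without animal 3. RAG1 and VPREB3, which act in early B cell development, were not well above background in any of the 16 channels. By the authors' value table FCRL3 (-4.54, adjusted p of 0.0111 by limma), FCRL5 (-3.13, 0.0297) and POU2AF1 (-4.41, 0.0397) passed after adjustment, each lower in endometrium. They were well above background in 0, 2 and 2 of 8 endometrial channels, so the size of these ratios depends on how background is treated. Like some others of the 30, these genes entered the test through their blood channels alone and could hardly come out higher in endometrium. POU2AF1 is among the 9 above, and all of them count in the median of -0.74. CD24 entered through endometrium alone, with 7 of 8 channels there and 3 of 8 in blood.

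The pathway that the receptor feeds had both signs. Of 43 other genes of B cell receptor signaling considered, 39 were tested, and their median log2 ratio was -0.19, beside -0.02 over all probes. After adjustment 0 passed, and at the nominal threshold 4 were lower in endometrium (LYN, GRB2, PRKCB and RELA) and 3 were higher (JUN, FOS and RAC3), beside 5.11% of all probes lower and 5.27% higher. The median of the list lay between -0.54 without animal 2 and -0.11 without animal 1. JUN, FOS, RAC3, RELA, PIK3R5 and PIK3R3 are genes that the study placed in this pathway from these same samples, so their direction is not independent evidence. GRB2 and PRKCB were listed by the study as higher in blood under other terms, so the same holds for them. LYN, the kinase that phosphorylates CD79A, CD79B and CD22, had a log2 ratio of -1.91 ± 0.67 (SE, n = 4). GRB2, an adaptor, was at -1.62 ± 0.45, PRKCB, a protein kinase C, at -1.56 ± 0.44 and DAPP1, an adaptor that binds membrane phosphoinositides, at -1.37 ± 0.82. BCL10, which acts with MALT1 toward NF-kB, was at -1.36 ± 0.74. DAPP1 was at -2.24 without animal 1 and at -0.61 without animal 3, and BCL10 at -0.42 without animal 3. On the other side JUN and FOS, the subunits of the AP-1 transcription factor, were at 2.04 ± 0.42 and 2.01 ± 0.50. PTPN6, the phosphatase that CD22 recruits, was at 1.28 ± 0.61, RAC3, a small GTPase, at 1.22 ± 0.32 and RASGRP3, an exchange factor for RAS, at 1.02 ± 0.57. PTPN6 was at 0.52 without animal 2, and RASGRP3 was at 0.50 without animal 1. Adjusted p for these 10 genes lay between 0.262 and 0.464. BTK and PLCG2, the kinase and phospholipase next to BLNK, were at 0.12 and 0.04. Many of these genes, LYN, JUN and PTPN6 among them, are also known in monocytes and other leukocytes.

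**Figure D4:**
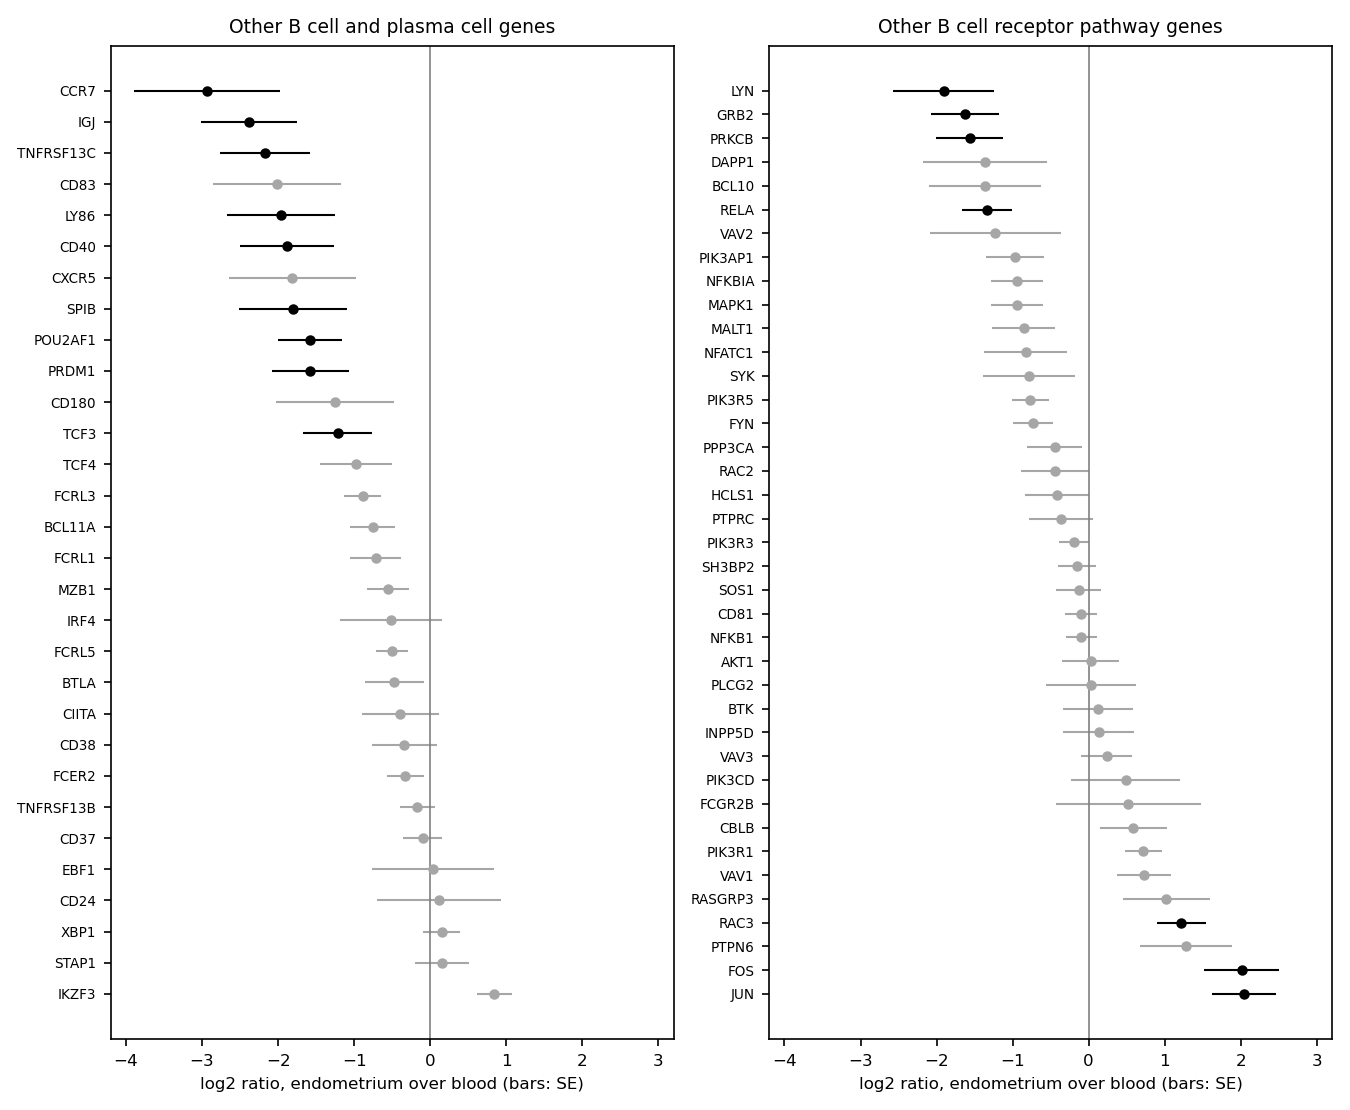
Log2 ratio of endometrium over blood (x axis; bars, SE over 4 animals) of 30 other B cell and plasma cell genes and of 39 other genes of B cell receptor signaling (y axes), in black where the nominal threshold (p before adjustment of 0.05 or less, fold change over 2) was passed and in grey otherwise. The left panel has 9 black points, all below 0, and the right one has 4 below 0 and 3 above.

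Markers of other cells also differed between the animals. The median log2 ratio of 15 monocyte and macrophage markers was -0.04. At the nominal threshold 1 of the 15 was lower in endometrium and 5 were higher, beside 5.11% and 5.27% of all probes. Among the 5 are CD163 and CSF1R, which the study listed as higher in endometrium from these same samples. The mean level of the 15 markers was 12.65 in blood of animal 1 and between 8.78 and 9.53 in blood of animals 2 to 4, and in endometrium it ranged from 8.79 to 12.19.
T cell markers, 13 of 16 listed, ran the other way between animals, with a mean level of 6.48 in blood and 7.17 in endometrium of animal 1 and of 9.46 to 10.83 in blood and 8.76 to 10.21 in endometrium of animals 2 to 4. Their median log2 ratio was -0.15, and at the nominal threshold 0 of 13 were lower in endometrium and 2 were higher, CD2 at 1.52 ± 0.43 (SE, n = 4) and CD3E at 1.04 ± 0.39, beside 5.11% and 5.27% of all probes. The B cell and plasma cell genes had a mean level of 8.69, 8.89, 9.85 and 9.05 in blood and of 8.07, 7.66, 8.09 and 8.93 in endometrium of animals 1 to 4, so animal 3 was highest in blood and animal 4 in endometrium, as for the members.

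Of the cells that the endometrial digest could add, 8 trophoblast markers had a mean level of 9.76 to 11.44 in endometrium and of 6.55 to 7.5 in blood. After adjustment 5 of the 8 were differentially expressed, beside 0.0661% of all probes (11 of 16654). The study listed these 8 genes as higher in endometrium from these same samples, so that count is not independent evidence. The 9 epithelial markers ranged from 8.91 to 12.58 in endometrium and from 6.81 to 8.11 in blood. Both lists had their highest endometrial level in animal 3. That animal had the lowest B cell ratios and also the highest blood level in 9 of the 10 member probes. The 8 stromal markers ranged from 6.78 to 13.01 and from 6.84 to 8.47. Natural killer markers, 9 of 10 listed, ranged from 8.94 to 11.90 in endometrium and from 7.61 to 10.62 in blood. The 7 granulocyte markers tested of 13 listed ranged from 6.63 to 7.94 and from 7.03 to 9.26, with CATHL4 and CAMP not above background in any channel. The 4 dendritic cell markers tested of 14 listed ranged from 8.82 to 9.24 and from 9.26 to 10.62. Their median log2 ratio was -0.78, with 4 of 4 lower in endometrium, beside -0.74 for the other B cell and plasma cell genes. For granulocyte markers the median was -0.57, with 6 of 7 lower, and without animal 1 it was -0.07. For natural killer markers it was 0.52, with 2 of 9 lower. The part of these cells in the ratios of the B cell genes was not tested. In such bulk preparations, fewer B cells and less B cell RNA for each cell cannot be told apart.

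**Figure D5:**
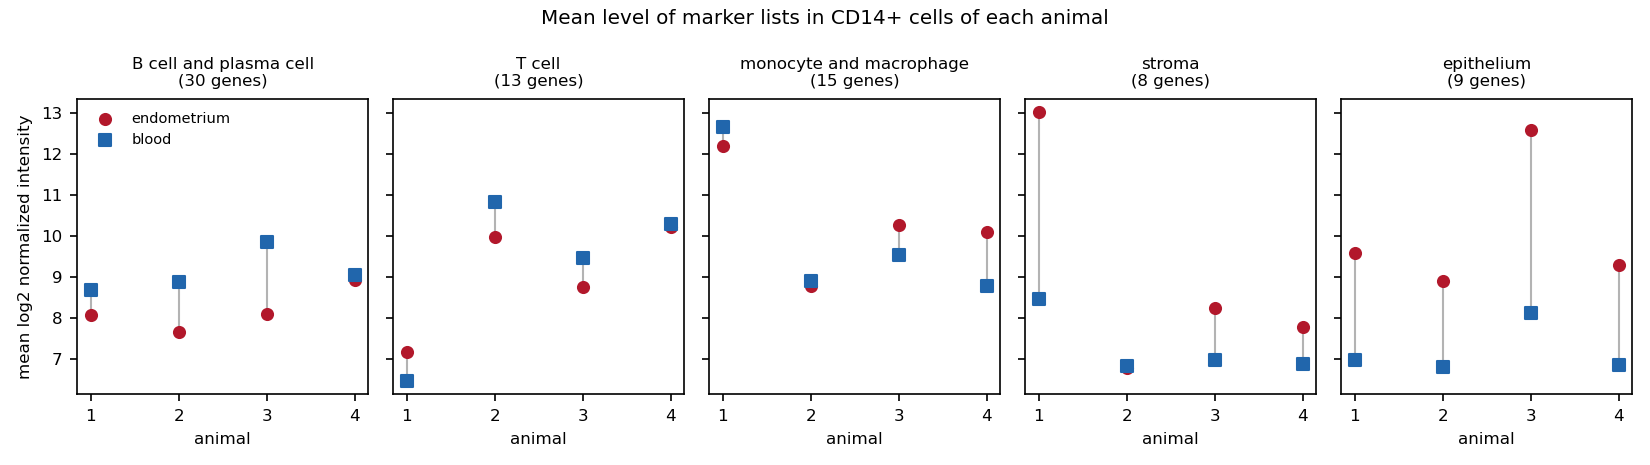
Mean log2 normalized intensity (y axis) of the tested genes of 5 marker lists in each animal (x axis), with circles for endometrial and squares for blood CD14+ cells. B cell and plasma cell genes are highest in blood of animal 3, monocyte markers are highest and T cell markers lowest in animal 1, and stromal markers reach 13.01 in endometrium of animal 1.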

How the data were processed

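The authors deposited scanner files with the median intensity of each spot and of its local background in each dye, without normalization, and a processed intensity that Feature Extraction had corrected for background and dye. They also deposited a table of log2 values, which, by the methods, had gone through lowess on each array and quantile normalization of the 16 channels. The labels give version 9.5 of Feature Extraction and the file headers 10.5.1.1. To match arrays to the value table, the processed signals of a channel were replaced, in order of rank, by the sorted values of a column and then set against that column within 0.001. Each column equaled the dye expected from the labels, in the scanner file of the animal's other hybridization rather than in its own, at 100% of spots with the 2 spots of a probe taken in either order (40.9% to 41.0% spot for spot). The animal's other channels equaled it at 0.714% or less, so the files of an animal were exchanged. Read so, the ratios of animals 1, 2 and 4 correlated with those of animal 3, whose dyes were not swapped, at r of 0.37, 0.45 and 0.36 across probes. Read as attached, the sign of each r turned.

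Median intensities of 44407 spots on each of 8 arrays were corrected by normexp with an offset of 50 in limma 3.58.1 (R 4.3.3, statmod 1.5.0 and version 1.17.8 of data.table), then normalized by loess and by quantiles. Control and outlier spots were left out and the spots of a probe averaged. Of the spots, 65.2% to 82.9% of a channel were well above background, and 0 were saturated. The number of arrays limits the precision.

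The log2 ratio of each animal was tested against 0 with limma's lmFit and eBayes over 16654 probes, those above background in 4 or more of a tissue's 8 channels. Adjustment was by Benjamini-Hochberg over all of them. An exact permutation over 4 animals cannot give a p under 0.125. Tissues were paired by the animal number of the labels, and the deviations of the tissues from their means correlated at r of 0.62, 0.36, 0.21 and 0.47. The fit was tested on simulated data. The members and the gene lists were chosen with earlier results of these data known. A few genes of the lists are left out here, from the counts and figures too. All member probes are named, and of the lists of B cell and pathway genes up to 5 with the lowest and 5 with the highest ratio. Genes of these lists called by the value table, and genes named for their place next to a member, are given too. The brightest probe stood for a gene in counts. Gene names were updated from a reference table of assembly ARS-UCD2.0, which matched 3519 probes by accession, 9987 by gene identifier, 297 by name and 88 by synonym. Alternatives changed the intensities, the normalization, the filter, the pairing, the slides, the test and the animals. Figures were drawn with matplotlib.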

Additional observations from a re-analysis of the deposited data

Results flagged for a closer look

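For 11 probes, the 10 of the members and the 1 with disagreeing names, 33 groups of 4 animals were searched for an animal far from the others, and 6 had one. Chance flags about 1 in 20 such groups, and the groups are not independent of each other. In endometrium, animal 4 stood above the other animals for the dimmer MS4A1 probe A_73_115697 (8.74 against 5.88 to 6.03), for CD79B (8.05 against 5.84 to 5.96) and for the probe A_73_100824 with disagreeing names (8.21 against 6.54 to 6.78). In endometrium, animal 1 stood above the others for CR2, at 12.02 against 6.01 to 6.72, and so did its CR2 ratio, at 5.13 against -0.23 to 0.13. The ratio of BANK1 in animal 3 was -0.91 against -0.17 to -0.14. What sets these preparations apart was not tested.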

How the results depend on the processing

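With 4 animals no result rests on much replication, and dim probes are limited by their signal over background. The count of 11 probes called over the array was 224 with the authors' value table and with the scanner's processed signal, 161 with a normexp offset of 0, 50 without background correction and 55 with probes well above background in all 16 channels. It was 5 with loess alone, 0 with median centring, 5 without a filter, 5 and 20 with the arrays of slide 1 and slide 2 alone, 0 with the methods' analysis of variance and 0 with the files as attached. It was 4 with the samples unpaired (no replicate block), and 792 with the dye fitted and a random replicate block for animals, which takes 8 arrays as samples. Without each animal in turn it was 0. Called member probes were 0 in the main analysis, 1 (BLK) with the value table, the processed signal and a normexp offset of 0, 2 (MS4A1 and CD22) with the random block, and 0 without the replicate block and without each animal. The 6 member probes lower in endometrium at an unadjusted p were 2 with the methods' analysis of variance, 0 with the files as attached, and 3 to 7 without each animal (3 without animal 2); this count was added after the data were seen. Read as attached, which turns 3 of the 4 animals, the log2 ratio was 0.39 for BLK, 0.13 for CD22, 0.67 for MS4A1 by probe A_73_105053, 0.037 for PAX5 and -1.32 for CR2. For CR2 it lay between -0.097 (without animal 1) and 1.69 when each animal was left out. The median ratio of the 9 genes lay between -2.57 with the value table and -0.11 with the files as attached, and between -2.09 and -0.87 without each animal.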
